A study of Saccharomyces cerevisiae with 12 samples.

Results

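The genes described here encode the subunits of the 3 nuclear RNA polymerases of budding yeast, Saccharomyces cerevisiae. They were taken from the count table by systematic name and made up 31 of its 6692 gene rows. All 31 passed the filter on low counts, which left 5918 genes for testing. By enzyme they were 7 genes of RNA polymerase I (Pol I), 7 of Pol II and 10 of Pol III, 2 shared by Pol I and Pol III, and 5 shared by all 3 enzymes.

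Pol I transcribes the ribosomal RNA precursor in the nucleolus, Pol II transcribes messenger RNAs, and Pol III transcribes transfer RNAs, the smallest ribosomal RNA and other short RNAs. Each enzyme has a pair of large catalytic subunits, an assembly pair that holds them together, a stalk, and the shared small subunits. Pol I and Pol III also carry built-in subunits that resemble general transcription factors of Pol II. Taf14 is a subunit of the Pol II general factors TFIIF and TFIID and of several chromatin remodelling and modifying complexes, and its YEATS domain is a reader of acylated histone H3.

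RNA was sequenced from 4 groups of 3 libraries each, after removal of ribosomal RNA. W81A cells were taf14 deletion cells with pRS313-taf14W81A-HA3-SSN6, which encodes Taf14 with the W81A change in the YEATS domain. Deletion cells carried the empty vector pRS313-HA3-SSN6, and TAF14 cells were the same deletion with TAF14 in that vector (pRS313-TAF14-HA3-SSN6). Wild type was BY4741, a common laboratory strain, with the empty vector. The vector label of every group thus included HA3-SSN6, and 3 of the 4 groups lacked the chromosomal TAF14 gene. The study asked how expression changes when the YEATS domain loses its binding to acetylated H3. The labels do not name the promoter that drives the plasmid genes, the number of clones, or whether replicates came from separate cultures. The p-values may therefore reflect technical spread alone.

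The 12 libraries held 9007715 to 11662085 counts, and the 31 genes took 0.768 to 0.951% of them. Levels are given in CPM, counts scaled so that all libraries have the same total. TAF14 itself was at 223, 203 and 192 CPM in W81A cells, 0.437, 0.199 and 0.484 CPM in deletion cells, 355, 143 and 302 CPM in TAF14 cells and 132, 129 and 148 CPM in wild type. The shift of chromosome XII was read as the median log2 level of its genes over the wild type mean, minus that of all other genes. It was 0.48 to 0.53 in the deletion libraries and 0.57 in TAF14 replicate 2, against -0.01 to 0.03 in the other 8 libraries. No polymerase subunit gene lies on chromosome XII, but the shift touches the scaling, so counts are also given without that chromosome. TAF14 replicate 2 also had the lowest TAF14 level of its group, and counts that turn on it are given without it. Of 5 genes that mark haploid a cells, the mating type of BY4741, all 5 were detected, and all 5 fell in W81A cells and in deletion cells against wild type. Their summed level was 583 to 645 CPM in W81A libraries, 259 to 267 CPM in deletion libraries, 1281 to 1709 CPM in TAF14 libraries and 1445 to 1514 CPM in wild type libraries. The 4 alpha-cell markers summed to 30.1 to 42.5 CPM and the 3 meiotic markers to 27.2 to 31.3 CPM over all 12 libraries, and LEU2, URA3 and MET17, which BY4741 lacks, were at 0 counts in each. The part of the mating-type genes in the results on polymerase genes was not tested.

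Transcript levels per kilobase of coding sequence differed 9.67-fold among the 31 genes in wild type. They are compared here in CPM per kb. RPB8, a small subunit shared by all 3 enzymes, was highest at 466 ± 21.8, and RPB3, a member of the Pol II assembly pair, was lowest at 48.2 ± 5.58 (SD, n = 3 each). The median gene was at 238 CPM per kb for Pol I, 128 for Pol II, 258 for the 5 subunits shared by all 3 enzymes and 79.7 for Pol III. Over the 5663 tested genes with a coding length in the annotation, the median was 44.3 CPM per kb. Within an enzyme the levels were uneven. Pol I genes spanned 4.90-fold, with the catalytic RPA135 at the top and the stalk gene RPA14 at the bottom, and Pol III genes spanned 2.36-fold. The assembly pair shared by Pol I and Pol III was the least even, with RPC40 at 385 CPM per kb and RPC19 at 64.2 CPM per kb. Replicates of 1 group were close, with a median SD of 0.07 on the log2 scale over the 31 genes. Every gene had at least 187 counts in every library.

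**Figure D1:**
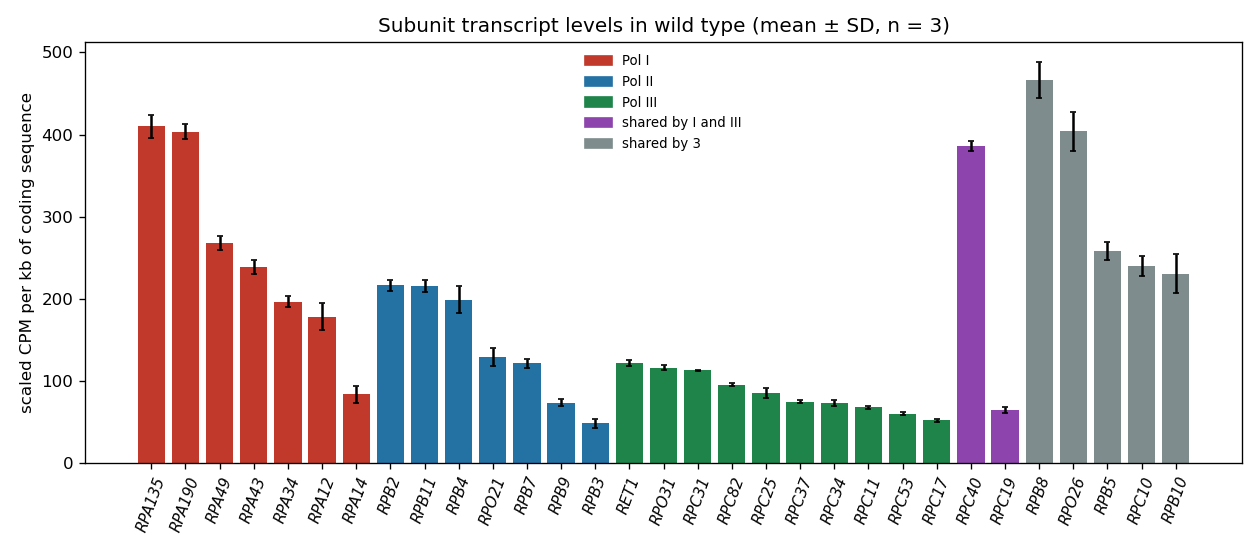
Level of each subunit transcript in wild type, in scaled CPM per kb of coding sequence (bars, mean; lines, SD; n = 3), coloured by enzyme. The 5 genes shared by all 3 enzymes and the catalytic genes of Pol I stand high, and the 10 Pol III genes lie between 51.8 and 122 CPM per kb.

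Across the groups the 31 genes moved by small amounts. In bulk libraries, less RNA in every cell and a change in a fraction of the cells cannot be told apart. The highest group mean exceeded the lowest by 1.08-fold for RPC11 at one end and by 1.71-fold for RPO21 at the other. Deletion cells had the lowest mean of the 4 groups for 18 of 31 genes, and for 11 of them all 3 deletion libraries lay below the other 9. Over all 5918 genes tested the shares were 35.1% for the lowest mean and 14.9% for all 3 libraries below, against 58.1% and 35.5% of the 31. They had the highest mean for 3 genes, RPO21, RPB2 and RPB4 of Pol II, and in each of these all 3 libraries lay above the other 9. That is 9.68% of the 31, against 33.2% of all genes for the highest mean and 14.4% for all 3 libraries above. TAF14 cells had the highest mean for 22 of 31 genes (71.0%), against 22.9% of all genes. A gene was called where edgeR's quasi-likelihood test, adjusted by Benjamini-Hochberg over all 5918 genes tested, gave an adjusted p below 0.05. Of the 31 genes, 28 were called in at least 1 of the 6 comparisons, and RPB3, RPC10 and RPC11 in none. Of all genes tested, 75.6% were called in at least 1, so most genes were called somewhere. Fold changes are log2 values of the first-named group minus the second.

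**Figure D2:**
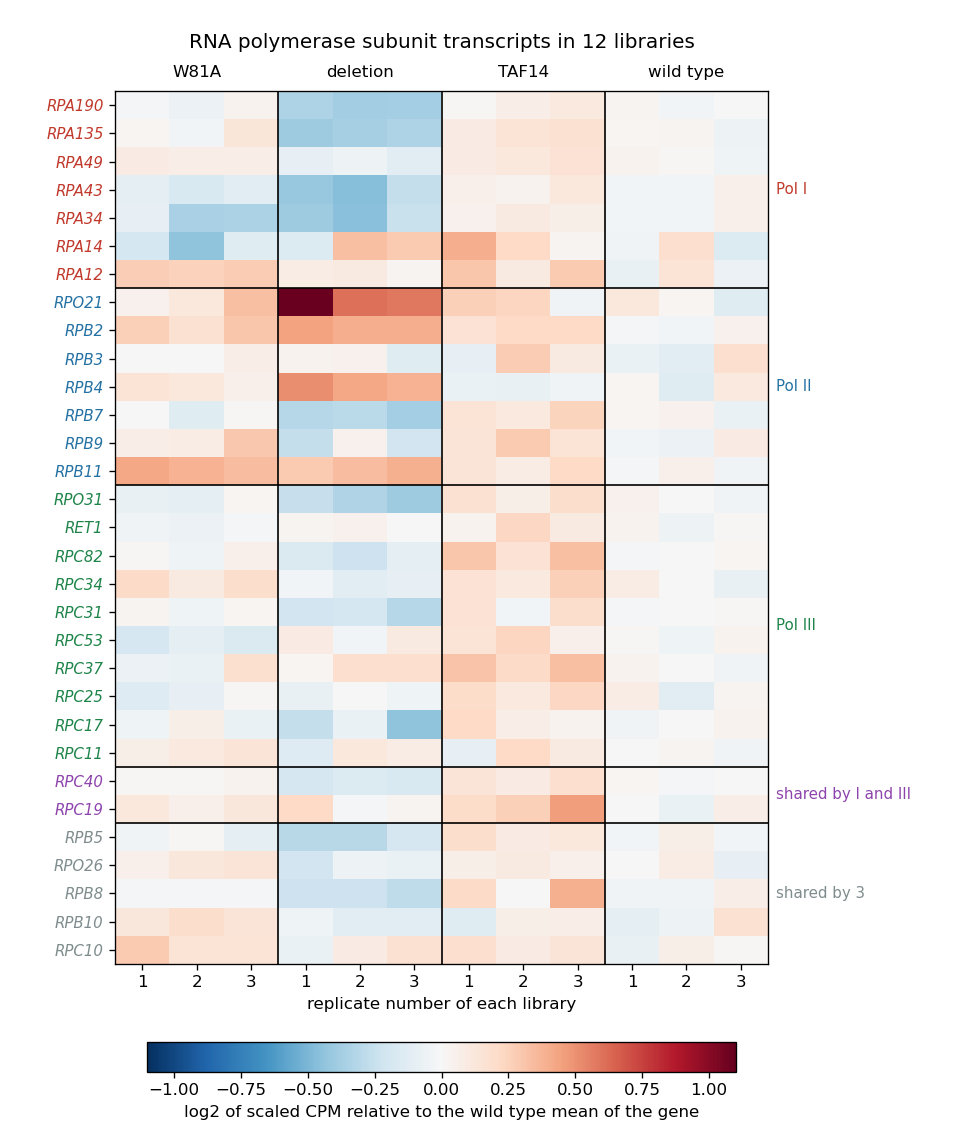
Level of each of the 31 subunit transcripts in each of the 12 libraries, as the log2 of scaled CPM relative to the gene's wild type mean, with genes in rows by enzyme and libraries in columns by group. The 3 deletion libraries are low for most Pol I genes and high for RPO21, RPB2, RPB4 and RPB11 of Pol II.

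In deletion cells, transcripts of the core of Pol I were lower and transcripts of the Pol II catalytic pair were higher. Against wild type, 12 of 31 genes fell in deletion cells and 4 rose, where 24.9% of all genes tested fell and 24% rose. All 4 that rose were Pol II genes. Against TAF14 cells, 18 of 31 fell in deletion cells and 4 rose, where 24.8% of all genes fell and 24.1% rose. The median change of the 31 genes was -0.09 against wild type and -0.22 against TAF14 cells, and the median over all genes tested was -0.02 and 0.00. By enzyme, 4 of 7 Pol I genes fell against wild type with a median of -0.36, while 4 of 7 Pol II genes rose and 1 fell with a median of 0.34. Of the 10 Pol III genes 4 fell, with a median of -0.06. Against TAF14 cells, 5 of 7 Pol I genes, 6 of 10 Pol III genes, both genes shared by these enzymes and 3 of 5 genes shared by all 3 fell, while 4 of 7 Pol II genes rose and 2 fell. With chromosome XII left out of the fit, 10 genes fell and 4 rose against wild type, and 17 fell and 4 rose against TAF14 cells. The 2 comparisons share the deletion libraries.

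**Figure D3:**
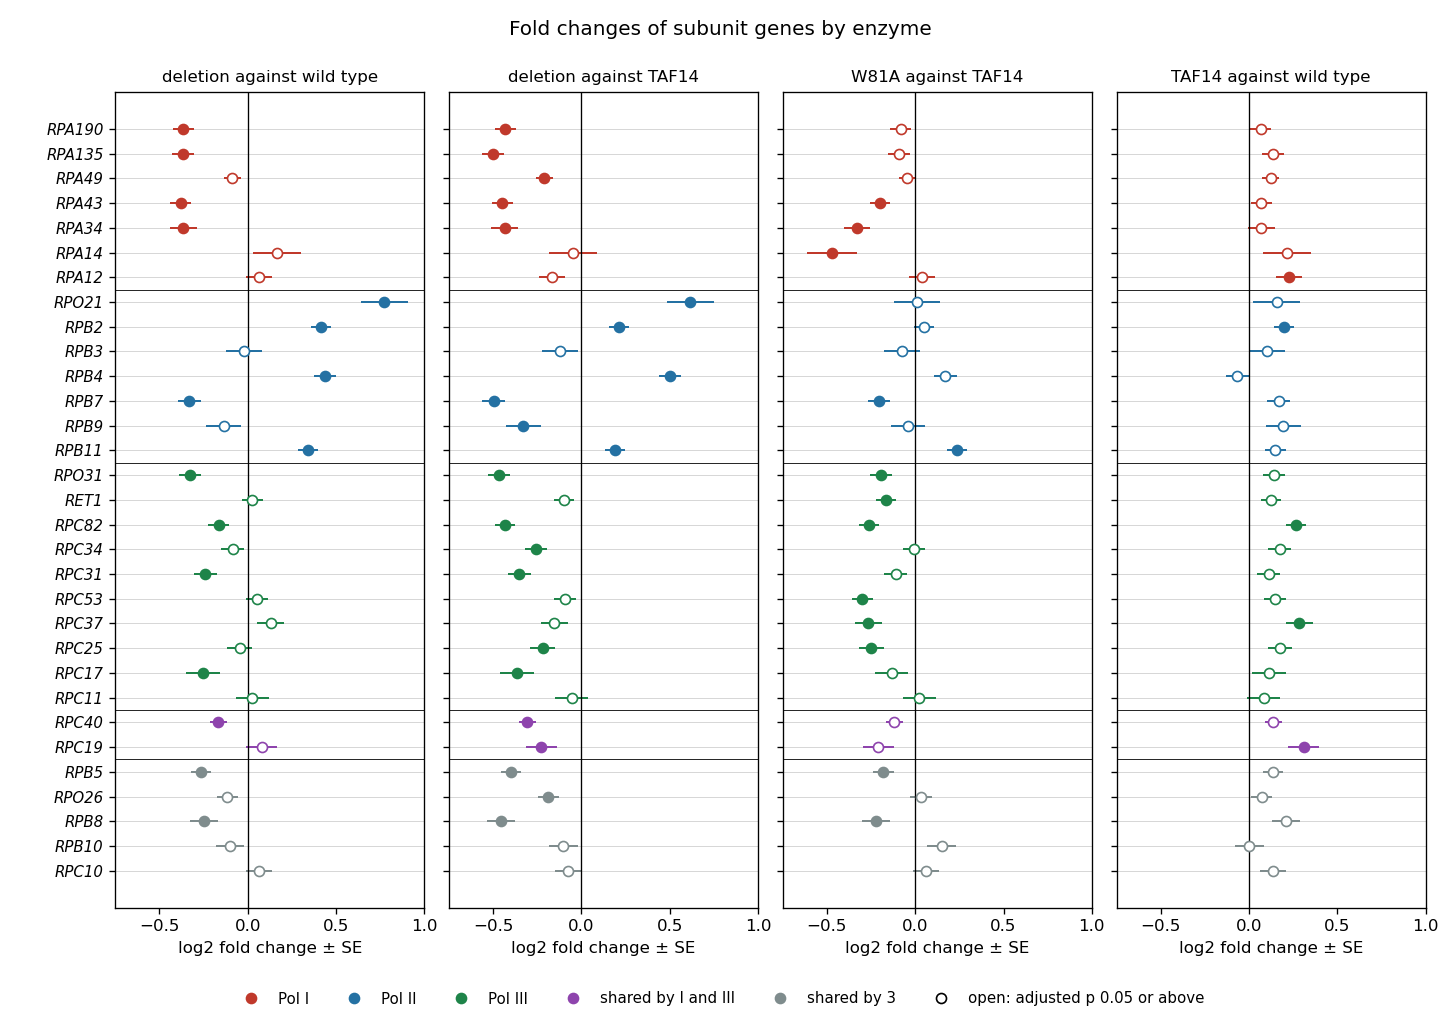
Log2 fold change ± SE of each subunit gene in 4 comparisons (panels, first-named group over the second), coloured by enzyme, with filled points for an adjusted p below 0.05. In both deletion panels the Pol I points RPA190, RPA135, RPA43 and RPA34 lie between -0.50 and -0.36, and RPO21, RPB2, RPB4 and RPB11 lie to the right of 0.

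RPA190 (YOR341W), the largest subunit of Pol I, lies at chrXV:960987-965981, plus strand (R64 assembly). It had 1985, 1924 and 2071 CPM in W81A cells, 1593, 1545 and 1559 CPM in deletion cells, 2030.5, 2126 and 2175 CPM in TAF14 cells and 2056, 1969.6 and 2023 CPM in wild type. The deletion libraries were the 3 lowest of the 12. Its log2 change in deletion cells against wild type was -0.36 ± 0.06 (edgeR adjusted p = 0.000258), while W81A cells differed from wild type by -0.02 ± 0.06 (adjusted p = 0.866). RPA135 (YPR010C), the second catalytic subunit, at chrXVI:577585-581196, minus strand, had 1499, 1447 and 1622 CPM in W81A cells, 1125, 1151 and 1168 CPM in deletion cells, 1571, 1638 and 1664 CPM in TAF14 cells and 1506, 1513 and 1422 CPM in wild type. Here too every deletion library lay below the other 9. The fold change was -0.37 ± 0.06 against wild type (edgeR adjusted p = 0.00037) and -0.50 ± 0.06 against TAF14 cells (adjusted p = 2.73e-05). These calls held under every alternative tried.

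Of the Pol I stalk genes, RPA43 fell in deletion cells and RPA14 was not called there against either wild type or TAF14 cells. RPA43 (YOR340C), a stalk subunit through which Pol I meets its initiation factor Rrn3, had 217, 209 and 215 CPM in W81A cells, 175, 169 and 195 CPM in deletion cells, 243, 239.7 and 253 CPM in TAF14 cells and 229, 229 and 243 CPM in wild type. It fell in deletion cells with a log2 change of -0.38 ± 0.06 against wild type (edgeR adjusted p = 0.000197). In W81A cells it lay below all TAF14 libraries, at -0.20 ± 0.06 (adjusted p = 0.0202), a call that was lost without W81A replicate 2, TAF14 replicate 1 or TAF14 replicate 3 (highest adjusted p = 0.0716). Its partner RPA14 (YDR156W) had 30.2, 25.4 and 31.4 CPM in W81A cells, 31.1, 43.3 and 41.9 CPM in deletion cells, 45.3, 40.02 and 35.2 CPM in TAF14 cells and 33.6, 39.2 and 31.01 CPM in wild type. The W81A group had the lowest mean, with its replicate 3 just above the lowest wild type and deletion libraries. RPA14 fell in W81A cells against TAF14 cells (-0.47 ± 0.14, edgeR adjusted p = 0.0205), and without W81A replicate 2 the difference was -0.39 (adjusted p = 0.0874). RPA14 also fell in W81A cells against deletion cells (-0.42 ± 0.14, adjusted p = 0.0258), lost without W81A replicate 2, deletion replicate 2 or deletion replicate 3 (highest adjusted p = 0.104). The call against TAF14 cells was also lost without TAF14 replicate 1 (-0.37, adjusted p = 0.0832). RPA14 overlaps an annotated neighbour by 8 bases, 1.93% of its coding length.

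The dimer of RPA49 and RPA34 is the built-in counterpart of a TFIIF core in Pol I. RPA34 (YJL148W) had 129, 107 and 108 CPM in W81A cells, 105, 100.03 and 116 CPM in deletion cells, 142, 148 and 144 CPM in TAF14 cells and 135, 135 and 143 CPM in wild type. Both mutant groups lay below every wild type and TAF14 library. It fell in deletion cells with a log2 change of -0.36 ± 0.08 against wild type (edgeR adjusted p = 0.00167), and in W81A cells with a log2 change of -0.33 ± 0.08 against TAF14 cells (adjusted p = 0.00553) and of -0.26 ± 0.08 against wild type (adjusted p = 0.0222). That last call was lost without W81A replicate 2, W81A replicate 3 or wild type replicate 3 (highest adjusted p = 0.0960). RPA34 was the 1 polymerase gene that fell in W81A cells against wild type. RPA49 (YNL248C) moved less, with 314 ± 6.29 CPM in deletion cells, 363 ± 8.95 CPM in TAF14 cells and 334 ± 10.5 CPM in wild type (SD, n = 3). It fell against TAF14 cells (-0.21 ± 0.05, edgeR adjusted p = 0.00304), and against wild type its change was -0.09 ± 0.05 (adjusted p = 0.149). RPA12 (YJR063W), the RNA cleavage subunit, had 80.9, 80.2 and 81.5 CPM in W81A cells, 70.9, 71.7 and 68.5 CPM in deletion cells, 82.8, 71.8 and 82.1 CPM in TAF14 cells and 63.5, 74.4 and 64.05 CPM in wild type. It was higher in W81A cells than in wild type (0.27 ± 0.07, edgeR adjusted p = 0.0166), a call lost without wild type replicate 1, wild type replicate 3 or W81A replicate 3 (highest adjusted p = 0.0793).

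RPO21 (YDL140C) encodes the largest subunit of Pol II, whose C-terminal repeats are phosphorylated through the transcription cycle, and lies at chrIV:205360-210561, minus strand. It had 687, 723 and 838 CPM in W81A cells, 1413, 1017 and 997 CPM in deletion cells, 798, 786 and 649.7 CPM in TAF14 cells and 721, 675 and 608 CPM in wild type. The deletion libraries stood above the other 9, and deletion replicate 1 stood apart from its own group. The mean rose 1.71-fold in deletion cells over wild type (0.77 ± 0.13, edgeR adjusted p = 0.000426) and 1.53-fold over TAF14 cells (0.62 ± 0.13, adjusted p = 0.00189). Without deletion replicate 1 the difference was 0.59 against wild type (adjusted p = 0.000987) and 0.44 against TAF14 cells (adjusted p = 0.00643). W81A cells differed from wild type by 0.17 ± 0.13 (adjusted p = 0.382) and were below deletion cells with a log2 change of -0.61 ± 0.13 (adjusted p = 0.00259).

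RPB2 (YOR151C), the second catalytic subunit of Pol II, had 952, 893 and 984 CPM in W81A cells, 1080.2, 1046 and 1048 CPM in deletion cells, 885, 926 and 925 CPM in TAF14 cells and 785, 778 and 821 CPM in wild type. The deletion libraries were highest, the wild type libraries lowest, and the W81A and TAF14 libraries overlapped between them. RPB2 rose in deletion cells against wild type (0.41 ± 0.06, edgeR adjusted p = 7.63e-05) and against TAF14 cells (0.21 ± 0.06, adjusted p = 0.00723), and in W81A cells against wild type (0.25 ± 0.06, adjusted p = 0.006). In TAF14 cells it was also above wild type (0.20 ± 0.06, adjusted p = 0.0308). This last call was lost without wild type replicate 1, wild type replicate 2 or TAF14 replicate 3, and with only the 2 groups in the fit (highest adjusted p = 0.101). RPB2 lay outside the wild type range in every group without a chromosomal TAF14 gene, whether or not a plasmid carried the gene. RPB2 and RPB11 were the 2 polymerase genes for which all 3 wild type libraries lay below the other 9. That is 6.45% of the 31, against 3.67% of all genes tested.

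The Pol II stalk is a dimer of RPB4 and RPB7 that acts in initiation. Its genes moved in opposite directions in deletion cells. RPB4 (YJL140W) had 146, 143 and 137 CPM in W81A cells, 188, 178 and 172 CPM in deletion cells, 126, 125 and 129 CPM in TAF14 cells and 134, 120.5 and 143 CPM in wild type. RPB7 (YDR404C) had 62.9, 57.2 and 63.2 CPM in W81A cells, 50.3, 51.1 and 48.2 CPM in deletion cells, 69.5, 67.5 and 74.3 CPM in TAF14 cells and 63.6, 64.8 and 59.6 CPM in wild type. All deletion libraries were above the other 9 for RPB4 and below them for RPB7. Against wild type, RPB4 rose with a log2 change of 0.44 ± 0.06 (edgeR adjusted p = 0.000116) and RPB7 fell with a log2 change of -0.33 ± 0.07 (adjusted p = 0.00116). The CPM ratio of RPB4 to RPB7 was 2.32, 2.51 and 2.17 in W81A cells, 3.73, 3.48 and 3.57 in deletion cells, 1.81, 1.85 and 1.73 in TAF14 cells and 2.11, 1.86 and 2.39 in wild type. This ratio does not depend on library scaling. In W81A cells RPB7 was below TAF14 cells (-0.20 ± 0.06, adjusted p = 0.0267), a call lost without W81A replicate 2, TAF14 replicate 1 or TAF14 replicate 3, with only the 2 groups in the fit, and under upper-quartile scaling (highest adjusted p = 0.114).

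RPB11 (YOL005C), which pairs with RPB3 in assembly of Pol II, was the 1 polymerase gene that rose in W81A cells against TAF14 cells. It had 105, 102 and 99.04 CPM in W81A cells, 95.6, 98.9 and 103 CPM in deletion cells, 86.5, 82.9 and 91.1 CPM in TAF14 cells and 77.4, 81.4 and 76.1 CPM in wild type. W81A and deletion libraries overlapped and lay above every TAF14 and wild type library. The rise was 0.23 ± 0.06 in W81A cells against TAF14 cells (edgeR adjusted p = 0.00735), 0.38 ± 0.06 against wild type (adjusted p = 0.000348), and 0.34 ± 0.06 in deletion cells against wild type (adjusted p = 0.000351). The rise in deletion cells against TAF14 cells (adjusted p = 0.0135) was lost without deletion replicate 3 (adjusted p = 0.0590). Its partner RPB3 (YIL021W) was called in no comparison, with group means between 45.4 CPM in deletion cells and 49.4 CPM in TAF14 cells. RPB9 (YGL070C), a small subunit known for its part in transcription fidelity, fell in deletion cells against TAF14 cells (-0.33 ± 0.10, adjusted p = 0.0137), and this was lost without deletion replicate 1 or deletion replicate 3 (highest adjusted p = 0.0557).

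**Figure D4:**
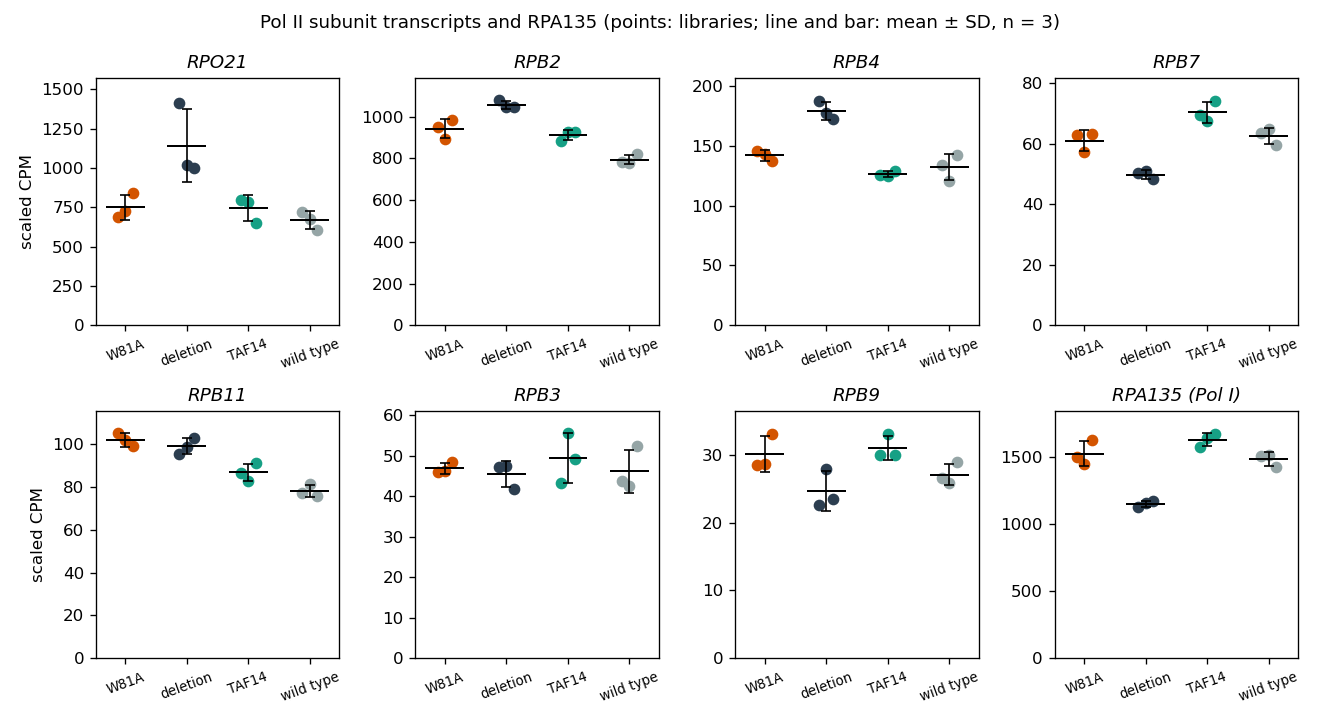
Scaled CPM of the 7 Pol II subunit genes and of RPA135 of Pol I in each library (points), with the mean and SD of each group (n = 3), on axes that start at 0. The deletion libraries lie highest for RPO21, RPB2 and RPB4 and lowest for RPB7 and RPA135, and the W81A and deletion libraries lie highest for RPB11.

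Summed over the genes of each enzyme, the transcript levels of Pol I and Pol II shifted against each other in deletion cells. The 7 Pol I genes came to 4307 ± 168 CPM in W81A cells, 3424 ± 28.7 CPM in deletion cells, 4608 ± 129.5 CPM in TAF14 cells and 4304 ± 59.1 CPM in wild type (SD, n = 3). The 7 Pol II genes came to 2075 ± 113 CPM in W81A cells, 2599 ± 259 CPM in deletion cells, 2021 ± 65.5 CPM in TAF14 cells and 1809 ± 36.5 CPM in wild type. The ratio of the Pol I sum to the Pol II sum was 2.12, 2.08 and 2.03 in W81A libraries, 1.18, 1.38 and 1.42 in deletion libraries, 2.19, 2.23 and 2.43 in TAF14 libraries and 2.36, 2.40 and 2.38 in wild type libraries. The deletion values lay below all others, and the W81A values below all of those of TAF14 cells and wild type. Both sums are led by the long catalytic genes. With RPO21 left out of the Pol II sum, the mean ratio was 3.25 ± 0.039 in W81A cells, 2.35 ± 0.053 in deletion cells, 3.61 ± 0.027 in TAF14 cells and 3.77 ± 0.15 in wild type (SD, n = 3), in the same order. Medians over genes, as log2 relative to the wild type mean, weigh each gene alike. For the 6 Pol II genes other than RPO21 the median was 0.160 in deletion cells, 0.165 in TAF14 cells and 0.132 in W81A cells. By this measure these Pol II genes were no higher in deletion cells than in TAF14 cells. For the 7 Pol I genes it was -0.317, 0.101 and -0.0167 in the same 3 groups. The ratio of the Pol III sum to the Pol II sum was 0.725, 0.725 and 0.697 in W81A libraries, 0.484, 0.561 and 0.561 in deletion libraries, 0.825, 0.802 and 0.884 in TAF14 libraries and 0.835, 0.831 and 0.842 in wild type libraries. Here too the deletion values were the 3 lowest, followed by the W81A values. The Pol III sum itself was 1484 ± 47.4 CPM in W81A cells and 1384 ± 19.2 CPM in deletion cells (SD, n = 3). It was 1690 ± 29.9 CPM in TAF14 cells and 1512 ± 30.2 CPM in wild type. The W81A and wild type libraries overlapped in the Pol III sum and not in the Pol II sum, so their ratios differed mainly through Pol II. With 3 libraries against 3, a two-sided exact permutation test cannot give a p below 0.1, so the ratios are given with their spread alone.

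Of the 5 subunits shared by all 3 enzymes, 2 fell in deletion cells against wild type, where 24.9% of all genes fell, and 3 against TAF14 cells, where 24.8% fell. RPB5 (YBR154C), which contacts DNA ahead of the active site, had 162, 168 and 155 CPM in W81A cells, 135, 135 and 147 CPM in deletion cells, 191, 178 and 181 CPM in TAF14 cells and 163, 175 and 163 CPM in wild type. The deletion libraries were the 3 lowest. RPB5 fell with a log2 change of -0.26 ± 0.06 against wild type (edgeR adjusted p = 0.00206) and of -0.40 ± 0.06 against TAF14 cells (adjusted p = 8.98e-05). RPB8 (YOR224C) had 204, 202 and 204 CPM in W81A cells, 175, 175 and 169.5 CPM in deletion cells, 238, 205 and 269 CPM in TAF14 cells and 199, 201 and 217 CPM in wild type. Its deletion libraries were also the 3 lowest, and its TAF14 libraries were the most spread of the 4 groups. RPB8 fell with a log2 change of -0.45 ± 0.08 in deletion cells against TAF14 cells (adjusted p = 0.000434) and of -0.25 ± 0.08 against wild type (adjusted p = 0.0211). The call against wild type was lost without wild type replicate 3, deletion replicate 2 or deletion replicate 3 (highest adjusted p = 0.0771). RPO26 (YPR187W), the subunit also called Rpb6, fell against TAF14 cells (-0.19 ± 0.06, adjusted p = 0.019), and this was lost without deletion replicate 1 or TAF14 replicate 1, or with only the 2 groups in the fit (highest adjusted p = 0.0736). RPB10 (YOR210W) and RPC10 (YHR143W-A), a pair of small zinc-binding subunits, differed between deletion cells and wild type by -0.10 ± 0.08 and 0.06 ± 0.07, neither called. RPB10 had 53.4, 55.9 and 54.1 CPM in W81A cells and 47.3, 44.9 and 45.1 CPM in deletion cells, and was higher in W81A cells (0.25 ± 0.08, adjusted p = 0.0219). That call was lost without W81A replicate 2, deletion replicate 2 or deletion replicate 3 (highest adjusted p = 0.0847).

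Pol I and Pol III share the assembly pair RPC40 and RPC19. RPC40 (YPR110C) had 391, 391 and 399 CPM in W81A cells, 343, 350.4 and 345 CPM in deletion cells, 429, 414 and 441 CPM in TAF14 cells and 393, 382 and 391 CPM in wild type. Its deletion libraries were the 3 lowest, its TAF14 libraries the 3 highest. It fell in deletion cells with a log2 change of -0.17 ± 0.05 against wild type (edgeR adjusted p = 0.0112) and of -0.31 ± 0.05 against TAF14 cells (adjusted p = 0.000181). RPC19 (YNL113W) was at 29.2 ± 2.58 CPM in deletion cells and 27.5 ± 1.40 CPM in wild type (SD, n = 3), a difference of 0.08 ± 0.09 (adjusted p = 0.48). Its fall in deletion cells against TAF14 cells (-0.23, adjusted p = 0.0454) was lost under 11 alternatives (highest adjusted p = 0.201, with a change of -0.15 without TAF14 replicate 3). The ratio of RPC40 to RPC19 was 13.4 ± 0.26 in W81A cells, 11.9 ± 1.1 in deletion cells, 12.6 ± 0.93 in TAF14 cells and 14.1 ± 0.56 in wild type (SD, n = 3). The deletion and wild type libraries did not overlap in this ratio.

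Within Pol III the catalytic pair did not keep its ratio. RPO31 (YOR116C), the largest subunit, had 479.96, 473 and 517 CPM in W81A cells, 427, 403 and 387 CPM in deletion cells, 570.1, 530.4 and 583 CPM in TAF14 cells and 524, 506 and 496 CPM in wild type. All deletion libraries were below the other 9, and all TAF14 libraries above them. RET1 (YOR207C), the second-largest subunit, had 409, 403 and 416 CPM in W81A cells, 429.6, 434 and 422 CPM in deletion cells, 433, 492 and 451 CPM in TAF14 cells and 432, 406 and 424 CPM in wild type, and its deletion libraries overlapped those of wild type. In deletion cells against wild type the change was -0.33 ± 0.06 for RPO31 (edgeR adjusted p = 0.000833) and 0.03 ± 0.06 for RET1 (adjusted p = 0.719). The CPM ratio of RPO31 to RET1 was 1.17, 1.17 and 1.24 in W81A libraries, 0.993, 0.929 and 0.916 in deletion libraries, 1.32, 1.08 and 1.29 in TAF14 libraries and 1.21, 1.25 and 1.17 in wild type libraries. The deletion ratios lay below the other 9. For the Pol I pair RPA190 and RPA135 the same ratio was 1.36 ± 0.044 in deletion cells and 1.36 ± 0.06 in wild type (SD, n = 3), and the libraries overlapped. The Pol II pair shifted too, so this was not particular to Pol III. That shift leaned on deletion replicate 1, which stood apart for RPO21. The ratio of RPO21 to RPB2 was 1.31, 0.972 and 0.952 in deletion libraries, above the other 9. The highest of those was 0.919, in wild type, where the lowest was 0.741.

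RPC82, RPC34 and RPC31 form the trimer through which Pol III opens its promoters. RPC82 (YPR190C) had 189, 182 and 195 CPM in W81A cells, 168, 160.3 and 173 CPM in deletion cells, 231, 209.5 and 236 CPM in TAF14 cells and 185, 186 and 190.4 CPM in wild type. The deletion libraries were the 3 lowest and the TAF14 libraries the 3 highest, with the W81A and wild type libraries overlapping between them. It fell in deletion cells with a log2 change of -0.43 ± 0.06 against TAF14 cells (edgeR adjusted p = 4.68e-05), and in W81A cells with a log2 change of -0.26 ± 0.06 against TAF14 cells (adjusted p = 0.00408). Against wild type deletion cells were at -0.16 ± 0.06 (adjusted p = 0.0301), a call lost without deletion replicate 1, deletion replicate 2 or any 1 of the wild type libraries, with DESeq2, and without chromosome XII (highest adjusted p = 0.172). RPC31 (YNL151C) fell in deletion cells with a log2 change of -0.24 ± 0.07 against wild type (edgeR adjusted p = 0.0086) and of -0.35 ± 0.07 against TAF14 cells (adjusted p = 0.000657). RPC34 (YNR003C) fell with a log2 change of -0.26 ± 0.06 against TAF14 cells (adjusted p = 0.00463) and was at -0.08 ± 0.06 against wild type, not called.

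RPC53 (YDL150W) and RPC37 (YKR025W) form the TFIIF-like dimer of Pol III, which acts in termination and reinitiation. RPC53 had 66.9, 70.3 and 68.2 CPM in W81A cells, 80.8, 74.5 and 81.4 CPM in deletion cells, 84.3, 89.4 and 78.8 CPM in TAF14 cells and 76.5, 73.5 and 77.8 CPM in wild type. It was the 1 polymerase gene for which all 3 W81A libraries lay below the other 9. That is 3.23% of the 31, against 5.98% of all genes tested. RPC53 fell in W81A cells against TAF14 cells (-0.30 ± 0.06, edgeR adjusted p = 0.00297) and against deletion cells (-0.20 ± 0.06, adjusted p = 0.0173), the second call being lost without W81A replicate 1 or deletion replicate 3 (highest adjusted p = 0.0658). Against wild type its change was -0.15 ± 0.06 (adjusted p = 0.0935). RPC37 had 60.6, 60.3 and 71.7 CPM in W81A cells, 64.3, 71.9 and 72.1 CPM in deletion cells, 78.9, 73.2 and 79.7 CPM in TAF14 cells and 65.1, 63.5 and 61.6 CPM in wild type, with every TAF14 library above the other 9. It was lower in W81A cells than in TAF14 cells (-0.27 ± 0.08, adjusted p = 0.0173), lost without W81A replicate 1, W81A replicate 2, TAF14 replicate 1 or TAF14 replicate 3 (highest adjusted p = 0.0768). The stalk genes RPC25 (YKL144C) and RPC17 (YJL011C) changed by -0.22 ± 0.07 and -0.37 ± 0.10 in deletion cells against TAF14 cells, both called. The RPC25 call was lost without deletion replicate 1, deletion replicate 3, TAF14 replicate 1 or TAF14 replicate 3 (highest adjusted p = 0.0684). RPC17 had 20.96, 23.9 and 18.5 CPM in deletion cells, against 24.5, 25.1 and 25.9 CPM in wild type. Its fall against wild type (-0.25 ± 0.10, adjusted p = 0.0448) was lost under 14 alternatives (highest adjusted p = 0.193, with a change of -0.16 without deletion replicate 3). RPC11 (YDR045C), the cleavage subunit, had group means between 24.2 CPM in W81A cells and 22.5 CPM in wild type and was called in no comparison.

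In the YEATS point mutant 13 of 31 genes were called against TAF14 cells and 4 against wild type. Against TAF14 cells, 12 of 31 fell and 1 rose in W81A cells, where 17.2% of all genes tested fell and 15.8% rose, with a median of -0.11 for the 31 genes and 0.00 for all genes. Those that fell were RPA43, RPA34 and RPA14 of Pol I, RPB7 of Pol II, the shared RPB5 and RPB8, and RPO31, RET1, RPC82, RPC53, RPC37 and RPC25 of Pol III. The count of 12 was 13 without TAF14 replicate 2, 7 under upper-quartile scaling, 6 without W81A replicate 1, and 4 without W81A replicate 2, TAF14 replicate 1 or TAF14 replicate 3. The falls of RPA34, RPC82 and RPC53 and the rise of RPB11 held under every alternative tried, and the other 9 were each lost under at least 2. RPB8 and RET1 had the highest edgeR adjusted p, 0.0456 and 0.0424. RPB8 reached an adjusted p of 0.205 without TAF14 replicate 3 (a change of -0.12, against -0.22 with it) and RET1 0.125 without TAF14 replicate 2. RPB5 reached 0.137 without TAF14 replicate 1, RPO31 0.102 without W81A replicate 2, and RPC25 0.0701 without W81A replicate 1. Against wild type 3 of 31 rose and 1 fell in W81A cells, where 12.7% of all genes rose and 14.5% fell. The 3 that rose were RPB2, RPB11 and RPA12, and without TAF14 replicate 2, which enters the shared estimate of spread, 5 rose. The fall of RPA34 was lost without W81A replicate 2, W81A replicate 3 or wild type replicate 3. Of the 10 Pol III genes 0 were called against wild type by edgeR, DESeq2 or limma-voom, with 1 higher and 1 lower at an unadjusted p below 0.05.

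Set against deletion cells directly, W81A cells had 16 of 31 genes higher and 5 lower, where 22.7% of all genes tested were higher and 22.5% lower. The median was 0.17 for the 31 genes and 0.01 for all genes. With chromosome XII left out, 12 were higher and 5 lower. The higher genes included RPA190 (0.35 ± 0.06, edgeR adjusted p = 0.000431), RPA135 (0.41 ± 0.06, adjusted p = 0.000196), RPB7 (0.29 ± 0.07, adjusted p = 0.00296) and RPO31 (0.27 ± 0.06, adjusted p = 0.00322). The 5 lower genes were RPO21, RPB2 and RPB4 of Pol II, RPA14 and RPC53. RPB4 was lower in W81A cells with a log2 change of -0.33 ± 0.06 (adjusted p = 0.00102). RPO21 and RPB4 were called lower under every alternative tried. Of the 16 higher genes, 9 held under every alternative, and RPA49, RPA12, RPB9, RPB5, RPB8, RPB10 and RPC82 were each lost under at least 1 (highest adjusted p = 0.153, for RPC82 without deletion replicate 2). The count of 5 was 2 without deletion replicate 3 and 3 without W81A replicate 1 or W81A replicate 2.

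Several subunit genes were higher with plasmid-borne TAF14 than in wild type. In TAF14 cells 5 of 31 genes rose against wild type and 0 fell, where 8.11% of all genes tested rose and 8.75% fell. At an unadjusted p below 0.05, 17 rose and 0 fell, DESeq2 called 7 higher and 0 lower, and limma-voom 4 higher and 0 lower. The shares of all genes under these settings are not given here, so these counts cannot be set against them. The estimate was above 0 for 30 of 31 genes, with a median of 0.14 against 0.00 over all genes. The 5 were RPC82 (0.27 ± 0.06, edgeR adjusted p = 0.00753), RPC37 (0.29 ± 0.08, adjusted p = 0.0238), RPC19 (0.31 ± 0.09, adjusted p = 0.0305), RPB2 (0.20 ± 0.06, adjusted p = 0.0308) and RPA12 (0.23 ± 0.07, adjusted p = 0.0494). RPC82 was called under every alternative tried. The others were each lost under at least 4, with a highest adjusted p of 0.0744 for RPC37, 0.1204 for RPC19, 0.101 for RPB2 and 0.175 for RPA12. The count of 5 was 11 without TAF14 replicate 2, 3 without TAF14 replicate 1 or wild type replicate 3, 2 without wild type replicate 2 or with only the 2 groups in the fit, and 1 without wild type replicate 1 or TAF14 replicate 3. The comparisons of W81A and deletion cells with TAF14 cells use these same TAF14 libraries.

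The sequence upstream of each gene was searched for motifs known from ribosome synthesis. Genes for ribosome synthesis in yeast often carry a PAC motif (CGATGAG) and an RRPE motif (AAAAATTTT), which the repressors Dot6 and Tod6, and Stb3, bind. They were searched on both strands in the 300 bases from 250 before to 50 after the start codon, in the R64 reference genome from RefSeq. The letters of PAC and RRPE cannot overlap each other, and RRPE is close to its own reverse complement, so a longer run can hold overlapping matches on both strands. PAC was found in 9 of 31 windows (29.0%), against 420 of 5985 windows of the genome (7.02%). The 9 sites are shown with 10 bases on each side, on the strand of the gene, with the motif in capitals. The stretches lie at chrXIV:182723-182749 (minus) for RPA49, chrXV:960349-960375 (minus) for RPA43, chrX:140316-140342 (plus) for RPA34, chrIV:769456-769482 (plus) for RPA14, chrXVI:746903-746929 (minus) for RPC40, chrXIV:412633-412659 (plus) for RPC19, chrXVI:919147-919173 (minus) for RPC82, chrXIV:348588-348614 (minus) for RPC31 and chrXI:176659-176685 (minus) for RPC25. CGATGAG in capitals is PAC on the strand of the gene, and CTCATCG is the same motif read on the other strand.
RPA49: ttttttattgCGATGAGctgaaatttt
RPA43: gaaaagattcCGATGAGggtgtatggg
RPA34: aaaattttatCGATGAGcattgaatag
RPA14: ttatagaggtCTCATCGgtaaggcaga
RPC40: aaaattattgCGATGAGttgaaagaaa
RPC19: tattcacctgCGATGAGctggaaaaaa
RPC82: ttttcaaaagCTCATCGcattgaagga
RPC31: aaatagtttcCTCATCGcagcaaccta
RPC25: tcaggcgatgCTCATCGcttaaaattt

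By enzyme, PAC stood upstream of 4 of 7 Pol I genes, both genes shared by Pol I and Pol III, and 3 of 10 Pol III genes. It was in 0 of 7 Pol II windows and 0 of 5 windows of genes shared by all 3 enzymes. The sites lay 59 to 194 bases before the start codon. The shorter core GATGAG was in 17 of 31 windows (54.8%) against 20.4% of all windows, and was in 6 of 7 Pol I, 8 of 10 Pol III and 1 of 7 Pol II windows, that of RPB2. RRPE was in 16 of 31 windows (51.6%) against 6.98% of all windows, with 6 of 7 Pol I and 2 of 7 Pol II windows among them. Both motifs stood together in 7 windows. RPA190 and RPA43 are divergent neighbours that share 804 bases between their start codons.

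**Figure D5:**
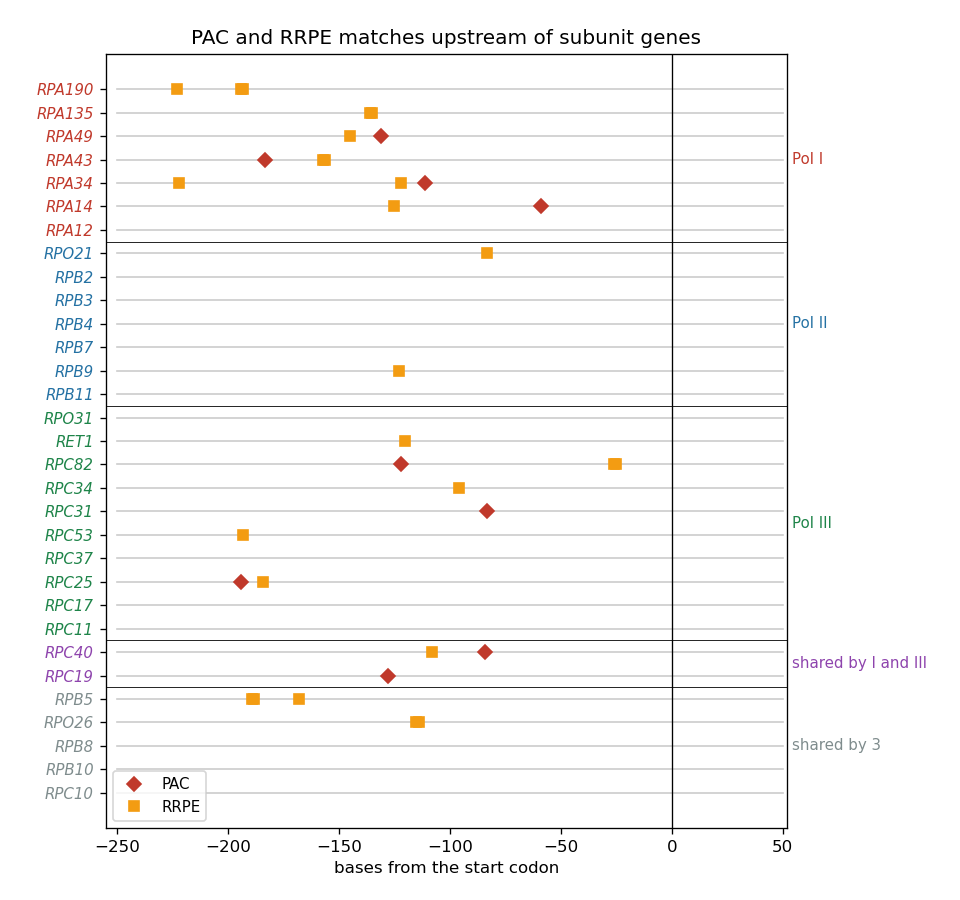
Matches of PAC (diamonds) and RRPE (squares) on either strand in the 300-base window of each subunit gene, in bases from the start codon, with genes in rows by enzyme. PAC stands upstream of Pol I and Pol III genes and the 2 genes they share, and of no Pol II gene.

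The windows of 3 genes that moved in different directions in deletion cells are shown whole, with PAC and RRPE in capitals where they occur. They do not stand for every gene. RPB7, RPB8 and RPC17 fell in deletion cells with neither motif in the window. RPA14 has both motifs and was not called in deletion cells against wild type or TAF14 cells. RPA43 of Pol I, which fell, has 1 PAC match and 2 overlapping RRPE matches in its window at chrXV:960133-960432, minus strand. RPO21 of Pol II, which rose, has 1 RRPE match and no PAC in its window at chrIV:210512-210811, minus strand. RPB4 of Pol II, which also rose, has neither in its window at chrX:150711-151010, plus strand.
RPA43: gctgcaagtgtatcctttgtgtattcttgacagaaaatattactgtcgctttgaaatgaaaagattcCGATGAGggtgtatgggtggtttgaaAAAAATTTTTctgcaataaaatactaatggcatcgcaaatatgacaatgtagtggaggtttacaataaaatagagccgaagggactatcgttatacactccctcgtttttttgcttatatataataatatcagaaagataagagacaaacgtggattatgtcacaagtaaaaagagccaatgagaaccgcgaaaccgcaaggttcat
RPO21: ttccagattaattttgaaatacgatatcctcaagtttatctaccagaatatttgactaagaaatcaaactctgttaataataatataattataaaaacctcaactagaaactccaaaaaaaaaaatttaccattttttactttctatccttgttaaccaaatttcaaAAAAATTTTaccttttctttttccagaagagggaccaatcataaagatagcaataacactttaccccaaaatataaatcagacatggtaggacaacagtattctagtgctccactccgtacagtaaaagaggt
RPB4: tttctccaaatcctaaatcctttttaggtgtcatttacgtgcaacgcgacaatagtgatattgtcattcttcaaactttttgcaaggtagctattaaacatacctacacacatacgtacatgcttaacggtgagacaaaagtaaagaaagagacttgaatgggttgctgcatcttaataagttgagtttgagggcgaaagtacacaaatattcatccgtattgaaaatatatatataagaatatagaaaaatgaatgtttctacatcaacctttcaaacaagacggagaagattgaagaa

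In deletion cells against TAF14 cells, 8 of the 9 subunit genes with PAC fell and the other, RPA14, was not called. Of the 22 subunit genes without PAC, 10 fell and 4 rose. Of all genes, 24.8% fell and 24.1% rose. Of the 8 calls, those of RPC19 and RPC25 were lost under 11 and 4 alternatives. Against wild type, 5 of the 9 with PAC fell, and 7 of the 22 without PAC fell and 4 rose, where 24.9% of all genes fell and 24% rose. Among the 404 other tested genes with PAC in the window, 40.1% fell and 13.1% rose in deletion against TAF14 cells, and among the 122 with both PAC and RRPE 53.3% fell and 8.20% rose. Against wild type, 33.7% of the 404 genes fell and 17.3% rose. A match says only that these letters are in the window. RPA190, RPA135 and RPO31 fell without a full PAC match, with core matches in each. RPB7, RPB5, RPB8 and RPC17 fell against both TAF14 cells and wild type with no core match. With core matches, RPB2 rose in both comparisons, and RPC53 and RPC37 were called in neither.

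Genes for factors that work with the polymerases were taken from lists of initiation factors, assembly factors and repressors. RRN3, RRN5, RRN6, RRN7, RRN9, RRN10, RRN11, UAF30 and HMO1 act with Pol I at the ribosomal RNA promoter. Of these 9, 3 rose and 1 fell in deletion cells against wild type, where 24% of all genes rose and 24.9% fell, with a median of 0.09. RRN3, the factor that docks on the RPA43 stalk, had 77.1, 80.3 and 76.9 CPM in W81A cells, 89.4, 85.5 and 92.6 CPM in deletion cells, 105, 96.01 and 100.1 CPM in TAF14 cells and 76.4, 75.7 and 83.8 CPM in wild type. The TAF14 libraries were the 3 highest. RRN3 was above wild type in TAF14 cells (0.35 ± 0.06, edgeR adjusted p = 0.00206) and fell in W81A cells against TAF14 cells (-0.36 ± 0.06, adjusted p = 0.000672), both under every alternative tried. RRN3 does not stand for the list in W81A against TAF14 cells. RRN6 and HMO1 were called higher there, where 15.8% of all genes rose and 17.2% fell. Their calls were lost under 3 and 7 alternatives (highest edgeR adjusted p = 0.0787 and 0.127). The calls in deletion cells against wild type were each lost without 1 of several libraries. RRN3 rose there (0.18 ± 0.06, edgeR adjusted p = 0.0251), lost without deletion replicate 3, wild type replicate 1 or wild type replicate 2 (highest adjusted p = 0.0966). RRN5, on the shifted chromosome XII, rose (0.78 ± 0.25, adjusted p = 0.018), lost without deletion replicate 2 or wild type replicate 3 (highest adjusted p = 0.0830). RRN11 rose (0.25 ± 0.09), lost without deletion replicate 1, deletion replicate 3, wild type replicate 1 or wild type replicate 2, and under upper-quartile scaling (highest adjusted p = 0.150). HMO1, a nucleolar high mobility group protein, fell (-0.20 ± 0.07), lost without deletion replicate 1, deletion replicate 3, wild type replicate 1, wild type replicate 3 or chromosome XII (highest adjusted p = 0.113).

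Of 9 Pol III factors (the TFIIIC subunits TFC1, TFC3, TFC4, TFC6, TFC7 and TFC8, the TFIIIB subunits BRF1 and BDP1, and the repressor MAF1), 4 rose in W81A cells against TAF14 cells and the other 5 were not called, with a median of 0.17. In the same comparison 6 of 10 Pol III subunit genes fell, and 15.8% of all genes rose and 17.2% fell. TFC3 had 102, 104 and 102 CPM in W81A cells, 100.2, 96.5 and 96.1 CPM in deletion cells, 76.00, 72.96 and 81.6 CPM in TAF14 cells and 94.4, 90.3 and 97.4 CPM in wild type. The TAF14 libraries were the 3 lowest, and TFC3 was higher in W81A cells than there (0.42 ± 0.06, edgeR adjusted p = 0.000128). TFC8 (0.31 ± 0.06, adjusted p = 0.00222), TFC4 (0.23 ± 0.06, adjusted p = 0.0149) and MAF1 (0.28 ± 0.10, adjusted p = 0.0459) also rose. The MAF1 call was lost under 12 alternatives, among them the fits without any 1 of the W81A libraries (highest adjusted p = 0.148). Against wild type, TFC1 (-0.46 ± 0.09, edgeR adjusted p = 0.00135) and TFC6 (-0.32 ± 0.08, adjusted p = 0.00587) fell in deletion cells. TFC8 (-0.36 ± 0.06, adjusted p = 0.00176) and TFC3 (-0.29 ± 0.06, adjusted p = 0.00457) were below wild type in TAF14 cells.

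Among 21 general initiation and elongation factors of Pol II, 6 rose (28.6%) and 2 fell (9.52%) in deletion cells against wild type, with a median of 0.03. Of all genes 24% rose and 24.9% fell, so the share that rose was near that of all genes. TFG1 encodes the largest TFIIF subunit, a partner of Taf14, and had 251, 253 and 245 CPM in W81A cells, 287, 288 and 287 CPM in deletion cells, 265, 255 and 267 CPM in TAF14 cells and 242, 242 and 246 CPM in wild type. The deletion libraries were the 3 highest. TFG1 rose against wild type (0.24 ± 0.04, edgeR adjusted p = 0.000754), and the other TFIIF partner, TFG2, was at 0.07 ± 0.06 (adjusted p = 0.368). Against TAF14 cells both TFG1 and TFG2 were called higher in deletion cells, where 24.1% of all genes rose. Those calls were lost under 4 and 6 alternatives (highest edgeR adjusted p = 0.0955 and 0.0997). SUA7, which encodes TFIIB, also rose against wild type (0.25 ± 0.05, adjusted p = 0.000757), as did SSL1 of TFIIH on chromosome XII (0.64 ± 0.14, adjusted p = 0.00204). TFB1 of TFIIH fell (-0.31 ± 0.06, adjusted p = 0.00114). The other gene that fell, named after its values were seen, was SPT15, the TATA-binding protein used by all 3 polymerases (-0.30 ± 0.07, adjusted p = 0.00225). In W81A cells against TAF14 cells 3 of the 21 fell (14.3%, against 17.2% of all genes), SUA7 (-0.15), SSL2 (-0.23) and RAD3 (-0.19), each a call lost with single libraries left out, and that of SUA7 also under upper-quartile scaling and with only the 2 groups in the fit. The highest edgeR adjusted p was 0.0852 for SUA7 without W81A replicate 3, 0.0746 for SSL2 without TAF14 replicate 1 and 0.0717 for RAD3 without W81A replicate 3.

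Of 7 genes for assembly and nuclear import of polymerases, 3 rose in deletion cells against wild type and 0 fell, where 24% of all genes rose and 24.9% fell, with a median of 0.09. They were NPA3 (0.41 ± 0.06, edgeR adjusted p = 0.000195), a GTPase needed for import of Pol II into the nucleus, its relative GPN3 on chromosome XII, whose genes stood high in all 3 deletion libraries (0.59 ± 0.12, adjusted p = 0.00118), and RBA50 (0.24 ± 0.06, adjusted p = 0.00314), an assembly factor. RBA50 had 94.6, 90.4 and 86.1 CPM in W81A cells, 121, 117 and 118 CPM in deletion cells, 141, 128 and 134 CPM in TAF14 cells and 101, 101 and 99.1 CPM in wild type. Its W81A libraries were the 3 lowest and its TAF14 libraries the 3 highest. It fell in W81A cells against TAF14 cells (-0.57 ± 0.06, adjusted p = 1.1e-05), as did GPN3 (-0.46 ± 0.12, adjusted p = 0.0103). GPN3 had 50.1, 50.1 and 51.4 CPM in W81A cells and 57.7, 85.9 and 64.4 CPM in TAF14 cells, and without TAF14 replicate 2, the high one, its change was -0.27 (adjusted p = 0.0158). RTP1 rose (0.23 ± 0.06, adjusted p = 0.0125), a call lost without W81A replicate 1 (adjusted p = 0.0640).

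The genes of the PAC and RRPE binding repressors were DOT6, TOD6 and STB3. Values are given for DOT6 and STB3 alone, so they do not describe the list as a whole. DOT6 had 92.1, 89.8 and 101 CPM in W81A cells, 84.3, 67.98 and 64.5 CPM in deletion cells, 82.8, 114 and 67.5 CPM in TAF14 cells and 135, 135 and 119 CPM in wild type. It fell in deletion cells against wild type (-0.84 ± 0.15, edgeR adjusted p = 0.000629). It was also below wild type in W81A cells (-0.46 ± 0.15, adjusted p = 0.0399) and TAF14 cells (-0.55 ± 0.15, adjusted p = 0.0259). The call in W81A cells was lost without any 1 of the W81A libraries, without wild type replicate 1 or wild type replicate 2, and in the robust fit (highest adjusted p = 0.121). The call in TAF14 cells was lost without TAF14 replicate 1, TAF14 replicate 3, wild type replicate 1 or wild type replicate 2, and with only the 2 groups in the fit (highest adjusted p = 0.0842). STB3 had 51.6, 48.2 and 46.9 CPM in W81A cells, 59.7, 48.1 and 45.8 CPM in deletion cells, 40.6, 35.8 and 35.4 CPM in TAF14 cells and 45.8, 45.7 and 44.4 CPM in wild type. It was above the TAF14 level in W81A cells (0.39 ± 0.10, adjusted p = 0.0078) and in deletion cells (0.46 ± 0.10, adjusted p = 0.00165).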

How the data were processed

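Total RNA from 4 yeast groups of 3 libraries was depleted of ribosomal RNA and sequenced from stranded libraries, per the labels' protocols. The authors deposited whole-number read counts per gene. TopHat2 2.0.14, SAMtools 0.1.19, HTSeq 0.6.1p1, DESeq2 1.8.1 and the build sacCer3 are named in the submitters' processing notes. The strand setting and annotation used for counting are not given in the sources used here, so reads of overlapping genes may be shared.

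From the deposited counts, 1 edgeR 4.0.16 quasi-likelihood model (R 4.3.3) was fitted to all 12 libraries and 4 groups, with TMM scaling and no other term. The default expression filter kept 5918 of 6692 genes. The p-values were adjusted by Benjamini-Hochberg over all tested genes, in each of 6 comparisons, and a gene was called below 0.05. The fit had 8 residual degrees of freedom and a biological coefficient of variation of 8.59%. CPM values use the scaled library sizes. The fit was tested on simulated counts with known changes.

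Alternatives were DESeq2 1.42.0, limma-voom 3.58.1, other scalings and filters, a robust fit, a replicate block, only the 2 groups compared, no chromosome XII, and each library left out in turn. Coordinates and promoter windows came from the RefSeq R64 genome, to which 6008 rows matched by systematic name and 684 (0.952% of counts) did not. A blastn 2.17.0+ search found no other gene at 95% identity or more to a subunit gene. The subunit genes and factor lists were chosen with earlier results of these data known. All 31 subunit genes are named, and from each factor list at most the 4 called genes with the smallest p in a comparison, plus TAF14, HIS3, TFG1 and TFG2. SPT15 was named outside this rule, after its values were seen.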

Additional observations from a re-analysis of the deposited data

How the results depend on the processing

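No called subunit gene changed sign under any of the 22 alternatives. Of 81 calls over the 6 comparisons, 48 were lost under none of them, 33 under at least 1, and 17 of these only when 1 library was left out. Of the 86 calls of the factor genes, 35 were lost under at least 1 alternative. Under upper-quartile scaling 2 subunit genes rose and 7 fell in W81A against TAF14 cells. With only the 2 groups in the fit, 2 rose in that comparison, 2 rose in TAF14 cells against wild type, and 432 of all genes were called in the last. Without chromosome XII the median was 0.133 for W81A against deletion cells and -0.0509 for deletion cells against wild type. The shorter cores gave PAC in 54.8% and RRPE in 71.0% of windows.

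Leaving out 1 library at a time gave these ranges. For W81A against TAF14 cells 1 to 2 genes rose, 4 to 13 fell, the median was -0.1196 to -0.0789, and 1446 to 2149 of all genes were called. For W81A against deletion cells 11 to 16 were higher and 2 to 6 lower, the median was 0.164 to 0.190, and 2225 to 3034 of all genes were called. For W81A cells against wild type 2 to 5 rose and 0 to 1 fell, the median was -0.000106 to 0.0368, and 1197 to 2008 of all genes were called. For deletion against TAF14 cells 3 to 4 rose and 15 to 19 fell, the median was -0.255 to -0.194, and 2509 to 3165 of all genes were called. For deletion cells against wild type 4 to 4 rose and 9 to 12 fell, the median was -0.0887 to -0.0685, and 2461 to 3217 of all genes were called. For TAF14 cells against wild type 1 to 11 rose and 0 to 0 fell, the median was 0.128 to 0.154, and 559 to 1385 of all genes were called.

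Correlations of same-numbered libraries ran from -0.341 to 0.509. Without those of differently numbered libraries beside them, they do not settle whether the replicate numbers pair the libraries. With the replicate block, 1 gene rose and 11 fell in W81A against TAF14 cells, 15 were higher and 5 lower in W81A against deletion cells, 3 rose and 1 fell in W81A cells against wild type, 4 rose and 18 fell in deletion against TAF14 cells, 4 rose and 12 fell in deletion cells against wild type, and 4 rose and 0 fell in TAF14 cells against wild type. Replicates of 1 group differed beyond counting noise, with a chi-square per degree of freedom of 3.01 to 43.3. With 3 libraries a group, a subunit gene that was not called is not shown to be the same in both groups.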

Other observations

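HIS3, the selectable marker gene of the plasmid pRS313, had 641, 645 and 671 CPM in W81A cells, 534, 716 and 641 CPM in deletion cells, 1187, 557 and 1052 CPM in TAF14 cells and 312, 311 and 267 CPM in wild type. All wild type libraries were below the other 9. TAF14 replicate 2 was lowest of its group for HIS3 as well as for TAF14.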
